A study of Mus musculus with 4 samples.

Results

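The transcripts described here encode the heavy chains of mouse MHC class I molecules, their common light chain and the regulator that drives their genes. They are H2-K1, H2-D1, H2-M3, H2-T23, H2-Q4, H2-T22, B2m and Nlrc5. Every probe set of the array whose gene symbol in the platform annotation is, or among several symbols includes, one of these 8 genes was taken, which gave 25 of 45037 non-control probe sets for 8 of 19324 gene symbols. A probe set is a group of short probes that read one stretch of transcript, and 17 of the 25 carried a single symbol while 8 carried several. The genes were picked with the difference between the groups already known, Nlrc5 being much lower in the knockout cells. The members' values are therefore given as a description, with no p-value, and the number of them that the fit called supports nothing.

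RNA came from mouse leukemic cells driven by the MLL-AF9 fusion gene, which had been purified from the marrow of transplanted C57BL/6 recipients. The 2 Ezh2 KO samples are labelled as knockout for Ezh2, the methyltransferase of Polycomb repressive complex PRC2, and another entry of their labels names donor marrow lacking both Ink4a and Arf. The 2 wild-type samples are labelled as coming from wild-type marrow cells. By these labels the groups differ both in Ezh2 and in Ink4a and Arf, whose parts in any difference cannot be told apart. The words Ezh2 KO cells therefore name a group and not a cause. MLL-AF9 is common to both groups, so the reference cells are leukemic too. RNA of every sample was read on an Affymetrix array of its own, in 1 colour. The strain of the transplanted cells, the way they were purified and the number of mice or leukemias behind a sample are not given in the sources used here. All errors and p-values therefore rest on how far these samples differ from one another, which may be technical variation, and the number of arrays limits their precision. The errors also draw on the spread of other probe sets of like intensity. Of a median of 9.3 degrees of freedom, 2 came from the probe set itself.

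A class I molecule is a heavy chain held at the cell surface together with beta-2 microglobulin, the product of B2m, and a peptide from inside the cell, which CD8 T cells read. Natural killer cells sense the loss of such molecules. H2-K1 and H2-D1 encode the classical, highly variable chains, and the M, Q and T region genes encode less variable ones with narrower tasks. NLRC5 is a protein of the NLR family that does not bind DNA itself. It joins RFX, CREB/ATF and NF-Y factors at the proximal promoters of class I genes, and interferon gamma raises its transcript.

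Intensities are on the linear scale the authors deposited, with each array scaled to one common trimmed mean, so a difference in total mRNA per cell is not visible. In bulk RNA, fewer cells expressing a gene and less RNA per cell cannot be told apart. Across 31526 probe sets with a mean intensity above 21.9, the 30th percentile of all, log2 intensities correlated at 0.9815 between the Ezh2 KO arrays, 0.981 between the wild-type arrays and 0.972 to 0.9755 between the groups. Ezh2 itself, on its single probe set, had 4989 and 4991 intensity units on the Ezh2 KO arrays and 5216 and 5315 on the wild-type arrays (log2 difference -0.08, SE 0.06, limma adjusted p = 0.555). Cdkn2a, the gene that encodes both Ink4a and Arf, had 41.2 and 22.05 on the Ezh2 KO arrays and 21.6 and 22.04 on the wild-type arrays (log2 difference 0.30, SE 0.45, limma adjusted p = 0.780). Where these probes lie relative to any deleted part is not known here, so neither value checks a label.

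The promoters of B2m, H2-K1, H2-D1, H2-M3 and H2-Q4 are shown first, because motifs of factors that bind class I promoters can be looked for in them. Those of H2-T23 and H2-T22 were searched too but are not printed. H2-K1 had 2 promoter windows in the source, and the first was used. The stretches below are the 200 bases before the annotated start in mouse build GRCm38.p6, taken from RefSeq, which represents C57BL/6J. They lie at chr2:122147487-122147686 on the plus strand for B2m, chr17:34000348-34000547 on the minus strand for H2-K1, chr17:35262894-35263093 on the plus strand for H2-D1, chr17:37270034-37270233 on the plus strand for H2-M3 and chr17:35379417-35379616 on the plus strand for H2-Q4. Each is written 5′ to 3′ along its gene. Capitals mark matches to 4 short motifs on either strand. They are the CCAAT box bound by NF-Y, which reads ATTGG where it lies on the opposite strand, the half-site of the cyclic AMP response element bound by CREB and ATF factors (TGACG), the core of the interferon response element (TTTCNNTT) and a core of the class I kappa B site (GGGATTNCC).
B2m: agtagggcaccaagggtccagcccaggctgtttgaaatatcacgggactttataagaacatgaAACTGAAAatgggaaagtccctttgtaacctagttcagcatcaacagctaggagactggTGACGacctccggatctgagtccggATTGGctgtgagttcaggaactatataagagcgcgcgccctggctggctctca
H2-K1: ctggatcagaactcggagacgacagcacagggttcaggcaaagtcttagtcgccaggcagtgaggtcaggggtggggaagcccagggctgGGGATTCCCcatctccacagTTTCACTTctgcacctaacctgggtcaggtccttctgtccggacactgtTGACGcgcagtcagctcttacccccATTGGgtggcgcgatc
H2-D1: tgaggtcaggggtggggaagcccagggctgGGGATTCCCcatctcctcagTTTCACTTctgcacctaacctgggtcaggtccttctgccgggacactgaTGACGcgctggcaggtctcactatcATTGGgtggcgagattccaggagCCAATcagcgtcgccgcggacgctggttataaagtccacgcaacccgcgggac
H2-M3: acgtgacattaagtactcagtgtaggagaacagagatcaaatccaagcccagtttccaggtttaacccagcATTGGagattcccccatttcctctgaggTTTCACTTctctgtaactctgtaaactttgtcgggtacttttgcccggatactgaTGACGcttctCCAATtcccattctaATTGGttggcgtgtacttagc
H2-Q4: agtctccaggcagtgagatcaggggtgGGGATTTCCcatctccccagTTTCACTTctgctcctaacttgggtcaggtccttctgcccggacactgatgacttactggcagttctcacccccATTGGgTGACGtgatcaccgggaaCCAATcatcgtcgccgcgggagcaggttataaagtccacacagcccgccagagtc

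Of the 8 genes 7 had a promoter in the table, and Nlrc5 is named only. Matches were counted in the 250 bases before the start. The CCAAT box was present in 7 of 7 members, against 33.8% of 32851 promoter windows of the same length, and the interferon response core was present in 7 of 7, against 21.3%. The CRE half-site was found in 6 of 7, against 17.8%, with H2-T23 lacking these letters. In H2-Q4 it began 73 bases before the start, after an ATTGG that began at 79. In H2-T22 it began 22 bases before the start, after all CCAAT boxes of that window. The count of 6 is therefore not a count of one shared arrangement. The kappa B core was found in H2-K1, H2-D1 and H2-Q4, 3 of 7, against 0.822% of all windows. In B2m, H2-K1, H2-D1 and H2-M3 a TGACG was followed after exactly 20 bases by an ATTGG, an arrangement that 30 of the 32851 windows (0.0913%) held on either strand. It began 78 bases before the start in B2m, 41 in H2-K1, 101 in H2-D1 and 46 in H2-M3. In H2-K1 the kappa B and interferon cores also lay nearer the start than in H2-D1, at 110 against 170 and 90 against 150. Such distances depend on the annotated start, and H2-K1 had 2 windows, so they are not read as differences between promoters. No match overlapped another in the 7 windows. The motifs and the spacing were picked after these promoters had been read, and a match is a description of letters, not of a bound site.

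**Figure D1:**
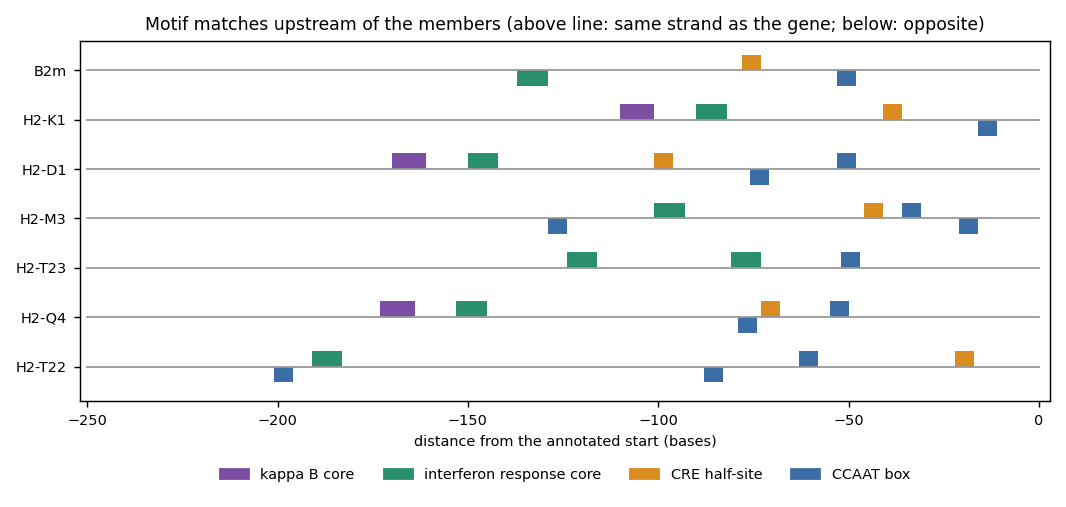
Matches to 4 motifs in the 250 bases before the annotated start of 7 member genes, with distance from the start in bases on the x axis; blocks above a line lie on the gene's own strand and blocks below it on the opposite strand. The CRE half-site of B2m, H2-K1, H2-D1 and H2-M3 is followed 20 bases later by a CCAAT box on the opposite strand, and the kappa B core appears in H2-K1, H2-D1 and H2-Q4.

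Across the 25 probe sets the Ezh2 KO arrays were lower or overlapped with the wild-type arrays, and in no case were both Ezh2 KO arrays above both wild-type arrays. Both Ezh2 KO arrays lay below both wild-type arrays for 19 of the 25, and over all non-control probe sets this held for 19.2%. The remaining 6 overlapped. Of the 25 probe sets 23 exceeded the intensity limit for testing, and 18 of these 23 had both Ezh2 KO arrays below, as did 21.7% of all tested probe sets. In a limma fit over all 31526 probe sets above that limit, with Benjamini-Hochberg adjustment, 17 of these 23 were called lower and 0 higher, where 3.39% of all tested probe sets were called lower and 3.91% higher, 7.31% in all. Because the genes were picked from this contrast, nothing is read from these counts. The median log2 difference was -0.73 over the 25 member probe sets and 0.04 over the tested probe sets.

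**Figure D2:**
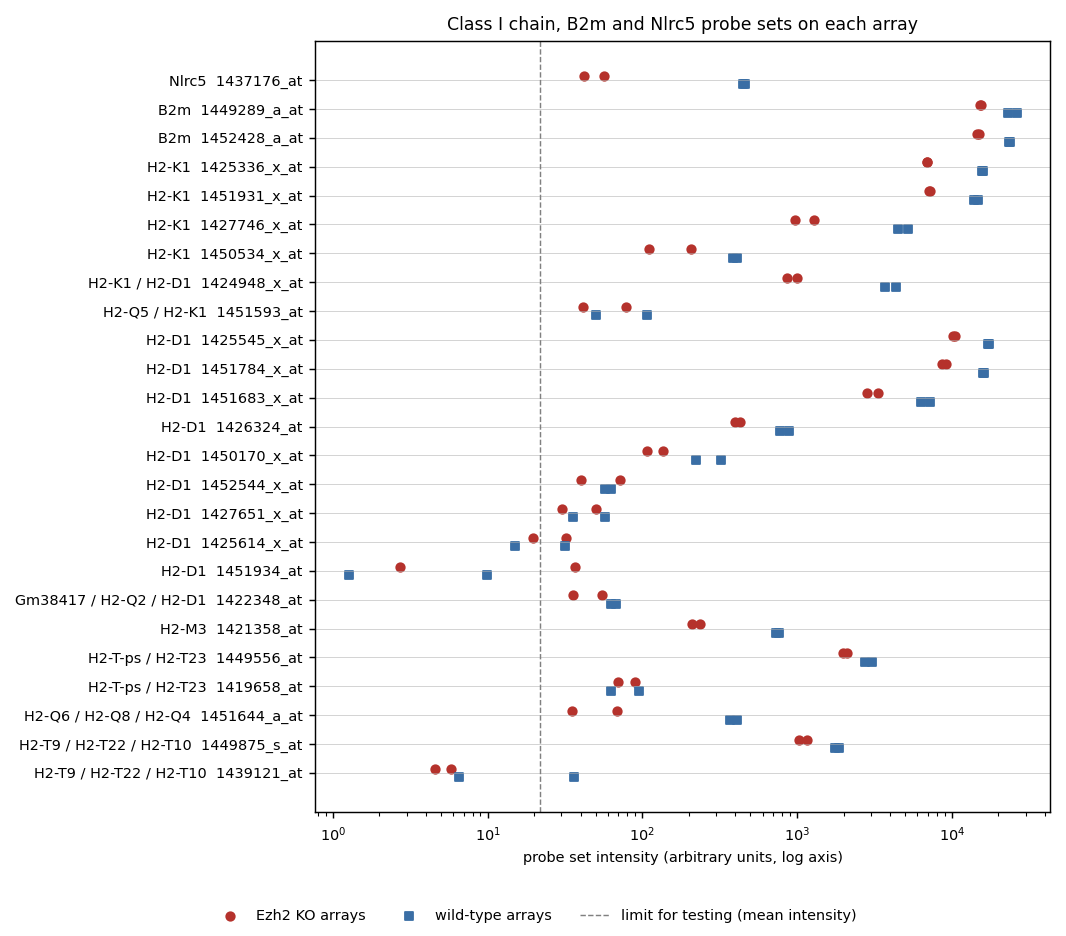
Intensity of each of the 25 probe sets (rows, with gene symbols and probe set name) on the 2 Ezh2 KO arrays (red circles) and the 2 wild-type arrays (blue squares), on a log axis; the dashed line is the limit for testing, which applies to the mean over 4 arrays. In 19 rows both circles lie left of both squares, and rows that overlap lie at the dim end of the axis.

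Nlrc5 was measured by a single probe set, 1437176_at. It had 41.8 and 56.6 intensity units on the Ezh2 KO arrays, against 462 and 445 on the wild-type arrays. Both Ezh2 KO arrays lay far below both wild-type arrays, and the gap was many times the distance between arrays of a group. On the scale of intensity plus 16, which keeps dim values from dominating, Nlrc5 was 7.25-fold lower in Ezh2 KO cells (log2 difference -2.86, SE 0.20). With 64 added in place of 16 the log2 difference was -2.20, and with 1 added it was -3.19. It was the member with the widest difference.

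The pair of B2m probe sets gave nearly the same picture. B2m, the light chain that every classical heavy chain needs to reach the surface, had 15235 and 15448 on the Ezh2 KO arrays, against 23206 and 26418 on the wild-type arrays, on 1449289_a_at. The second probe set, 1452428_a_at, had 15019 and 14475 against 23285 and 23777. Neither probe set overlapped between the groups. Their log2 differences were -0.69 (SE 0.07) and -0.67 (SE 0.06), or 1.61-fold and 1.60-fold lower in Ezh2 KO cells.

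H2-K1, a classical heavy chain, had 4 probe sets of its own and 2 that it shared with other chains. On the brightest, 1425336_x_at, it had 6924 and 6894 on the Ezh2 KO arrays, against 15765 and 16004 on the wild-type arrays (log2 difference -1.20, SE 0.06). On 1451931_x_at it had 7139 and 7229 against 13964 and 14819 (-1.0002, SE 0.06). On both, arrays of a group lay close together and the groups far apart.

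The dimmer H2-K1 probe set 1427746_x_at showed a wider gap, with 973 and 1296 on the Ezh2 KO arrays and 5203 and 4476 on the wild-type arrays (-2.09, SE 0.13). The dimmest, 1450534_x_at, had 111 and 206 against 412 and 384 (-1.30, SE 0.24), without overlap, although its Ezh2 KO arrays lay further apart, as a ratio, than those of the other H2-K1 probe sets without a second symbol. A probe set assigned to both H2-K1 and H2-D1, 1424948_x_at, had 856 and 998 against 3726 and 4345 (-2.10, SE 0.10). On the second shared one, 1451593_at, which also names H2-Q5, the groups overlapped, with 41.6 and 78.0 against 107.8 and 50.6 (-0.30, SE 0.39).

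For H2-D1, the other classical chain, 9 probe sets of its own and 2 shared ones were present. The brightest, 1425545_x_at, had 10485 and 10233 on the Ezh2 KO arrays, against 17150.1 and 17310.0 on the wild-type arrays (-0.73, SE 0.06). Next in brightness, 1451784_x_at had 9215 and 8610.0 against 16268 and 15847 (-0.85, SE 0.06). Then 1451683_x_at had 2818 and 3360.4 against 6329.5 and 7275 (-1.14, SE 0.10). These 3 did not overlap between the groups, and each was 1.66-fold to 2.20-fold lower in Ezh2 KO cells.

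Among dimmer H2-D1 probe sets, 1426324_at had 427 and 399 on the Ezh2 KO arrays, against 892 and 779.7 on the wild-type arrays (-0.99, SE 0.11). On 1450170_x_at the values were 135 and 108 against 224 and 323 (-1.06, SE 0.22). The groups were apart on both. On the 4 remaining probe sets of H2-D1 alone, 1452544_x_at, 1427651_x_at, 1425614_x_at and 1451934_at, no array exceeded 71.3 and the groups overlapped, with log2 differences of -0.13, -0.16, 0.10 and 0.57. The last of these, at 36.7 and 2.73 against 9.96 and 1.27, had a mean below the limit for testing. The shared probe set 1422348_at, which also names H2-Q2 and Gm38417, had 55.2 and 35.5 against 67.8 and 62.6, without overlap but with a difference close to its error (-0.42, SE 0.33).

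**Figure D3:**
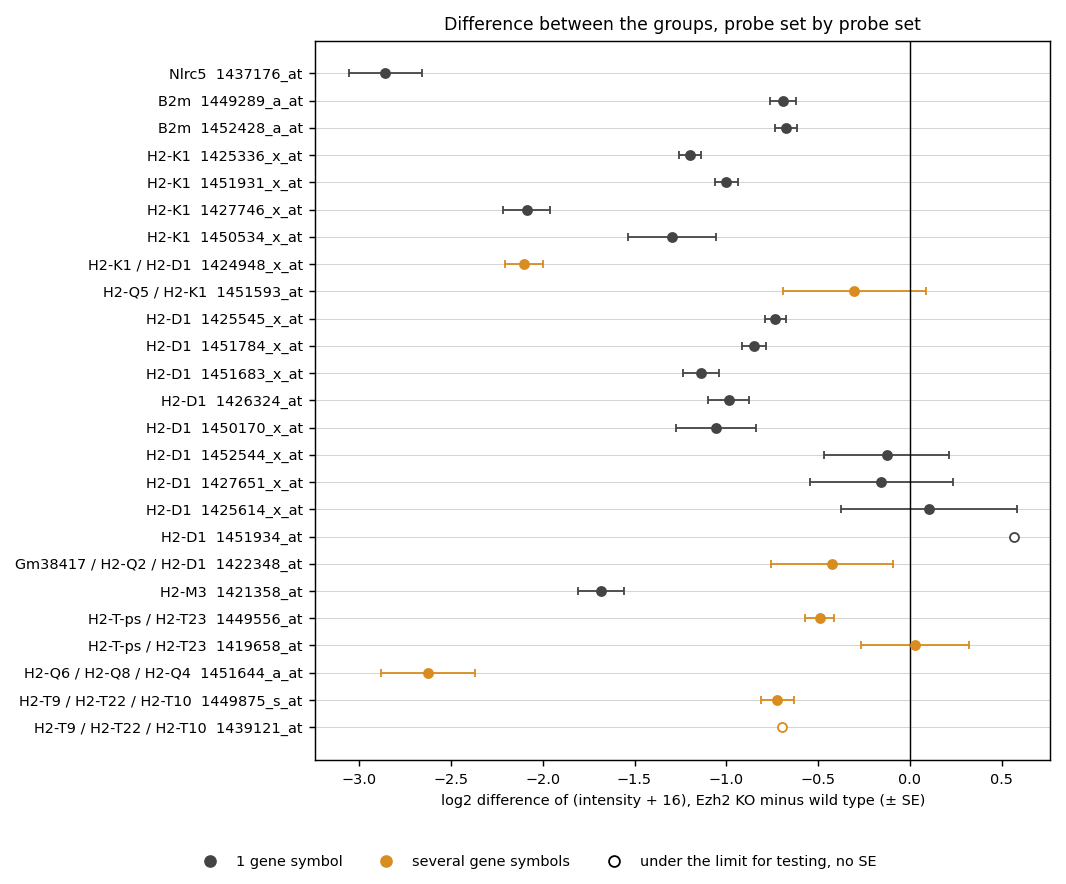
Log2 difference of intensity plus 16, Ezh2 KO minus wild type, for each of the 25 probe sets (rows), with its standard error from the limma fit; black points carry 1 gene symbol, orange points several, and open points lie under the limit for testing and have no error. The points run from -2.86 for Nlrc5 to 0.57 for an H2-D1 probe set under the limit, and probe sets of one gene differ, from -2.09 to -1.0002 among the 4 probe sets of H2-K1 alone.

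Outside the classical pair, probe sets of 4 further chains had both Ezh2 KO arrays below both wild-type arrays. H2-M3, which presents peptides with a formylated first methionine, had 211 and 237 on the Ezh2 KO arrays, against 769.7 and 736 on the wild-type arrays, on its only probe set (3.21-fold lower, log2 difference -1.68, SE 0.12). The groups were apart by far more than either group's spread. H2-T23 encodes Qa-1, which shows leader peptides of other class I chains to the receptor CD94/NKG2A. Its brighter probe set, 1449556_at, had 1984 and 2119.6 against 3041 and 2748 (-0.49, SE 0.08), which is the narrowest difference among the 17 member probe sets with a mean of 100 or more. The dimmer one, 1419658_at, overlapped, with 69.5 and 90.0 against 62.9 and 94.6 (0.03, SE 0.29). Both also name the pseudogene H2-T-ps.

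H2-Q4 was read only by 1451644_a_at, which also names H2-Q6 and H2-Q8, so the chain cannot be singled out. It had 35.1 and 69.0 on the Ezh2 KO arrays, against 371 and 411 on the wild-type arrays. That is 6.17-fold lower in Ezh2 KO cells (-2.62, SE 0.26), next after Nlrc5 among the members, and with 64 added in place of 16 the log2 difference was -1.99. The probe sets of H2-T22, a chain that some gamma delta T cells recognise, name H2-T9 and H2-T10 too. On 1449875_s_at they had 1029.7 and 1164 against 1868 and 1769.6 (-0.72, SE 0.09), without overlap. The other, 1439121_at, lay below the limit for testing, with 4.56 and 5.84 against 36.2 and 6.58, and its difference of -0.70 rests on wild-type replicate 1: it was -0.09 without that array.

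Probe sets of one gene did not give one size of difference. Of the 17 probe sets with a single symbol 11 have names ending in x_at, which in the maker's naming marks probes that may also match other transcripts. The heavy chains are alike in sequence and vary between strains, so a value may mix several chains. The 6 member probe sets with a mean over 10000, of B2m, H2-K1 and H2-D1, had log2 differences between -1.20 and -0.67. The 11 with a mean of 100 to 10000 had a median of -1.30 and ran from -2.86 to -0.49. The 6 tested ones under 100 ran from -0.42 to 0.10. Whether brightness or cross-matching sets these sizes was not tested. In each band of intensity from 100 upward every member lay below the 5th percentile of all tested probe sets of that band, which was -0.52 for means of 100 to 300 and -0.25 for means over 10000. Under 100 none of the 6 did, where the 5th percentile was -0.74. The bands were drawn after the values had been seen, and by the mean over all arrays. Nlrc5 and the H2-Q4 probe set reach a mean of 100 only through their wild-type arrays. Because the members were also picked from this contrast, nothing is read from their places in the bands.

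**Figure D4:**
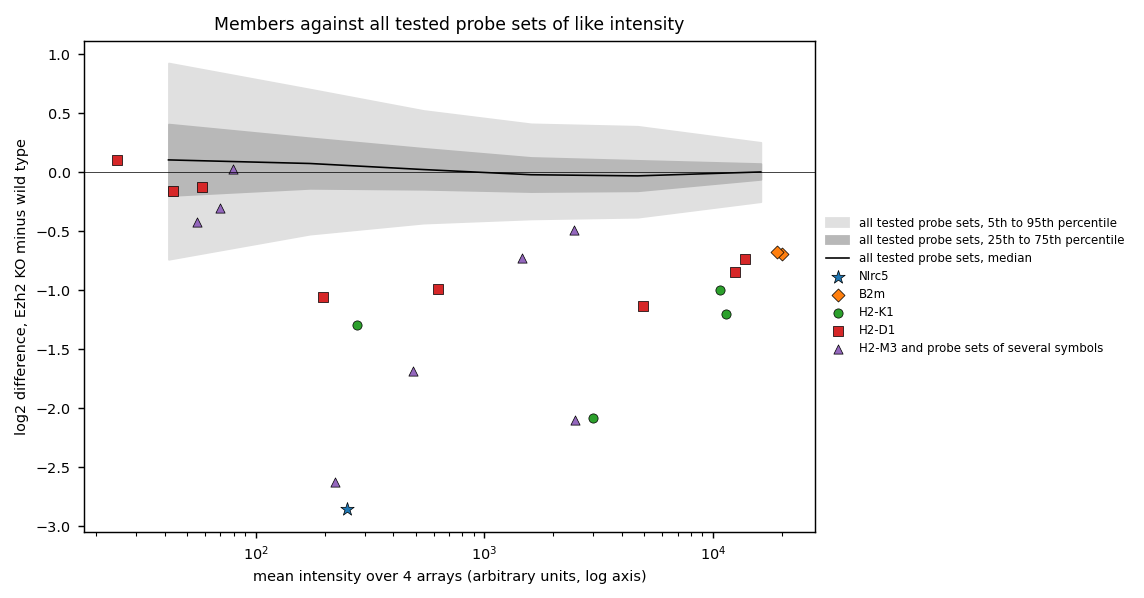
Log2 difference, Ezh2 KO minus wild type (y axis), against mean intensity over the 4 arrays (x axis, log scale) for the 23 tested member probe sets, over grey bands that give the 5th to 95th and 25th to 75th percentiles of all tested probe sets in 6 ranges of intensity. The 17 members with a mean of 100 or more lie lower than the light band and the 6 dimmer ones within its height.

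Transcripts whose course over the 4 arrays was nearest to a member's were found by the distance between log2 values centred on each probe set's own mean, among 25580 single-symbol probe sets above the limit. Nearest to Nlrc5 were a pair of probe sets of 1700097N02Rik (distances 0.142 and 0.164), then Mndal of the interferon-inducible Ifi200 family (0.324), the guanylate-binding protein gene Gbp6 (0.386) and Cox6b2 (0.414). For the brightest H2-K1 probe set they were Pcp4l1 (0.0288), Ikbkg (0.0645), Vcam1 (0.0678), Ccr1 (0.0828) and Ctss (0.0829). For the brightest H2-D1 probe set they were Phgdh (0.0188), Tctex1d1 (0.0273), Sec24d (0.0278), Atp13a2 (0.0343) and Sgip1 (0.0383). For B2m they were Stmn3 (0.0433), Trio (0.0488), Muc13 (0.0600), Gadd45b (0.0603) and Fnbp1l (0.0620). With 4 arrays in 2 groups, this measure mostly finds probe sets with a like difference between the groups. Some of those named were dim. Gbp6 had 2.37 and 12.5 on the Ezh2 KO arrays, both under the limit for testing, against 113 and 129 on the wild-type arrays. Near B2m, Stmn3 had 28.2 and 28.7 against 52.8 and 63.2, and Trio had 32.0 and 31.6 against 55.2 and 63.4. At such intensities the log2 values, and so the distances, depend on the 16 added to each intensity.

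Genes that serve class I molecules without being members were counted from lists, with each gene read on its brightest single-symbol probe set. Of 12 tested genes of class I peptide loading 9 were called lower in Ezh2 KO cells and 0 higher, where 4.66% of all 13928 genes were called lower and 4.52% higher. Without the filter 7 of these 12 were called lower, with median centring 8, and fewer than 9 whichever array was left out. The list's median log2 difference was -0.54, against 0.01 over all genes. With a single prior variance for all intensities limma called 0 of 31526 probe sets, members and list genes included, while 4978 had an unadjusted p under 0.05; the adjusted p of Psmb9 was then 0.109. Psmb9, a catalytic subunit of the immunoproteasome, had 1868 and 1909.5 on the Ezh2 KO arrays and 4197 and 3928 on the wild-type arrays (2.14-fold lower, limma adjusted p = 3.67e-05). Psmb8, a further catalytic subunit, fell 2.12-fold (limma adjusted p = 3.32e-05). Tap1, which with Tap2 forms the peptide transporter into the endoplasmic reticulum, had 652 and 727 in Ezh2 KO cells against 1381 and 1459.8 in wild type (2.04-fold lower, limma adjusted p = 0.000276). Tap2 fell 1.70-fold (limma adjusted p = 0.000463). The general chaperones Calr, Canx and Pdia3 did not pass, at log2 differences of 0.01, -0.04 (Canx) and -0.07.

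Further class I and class I-like chains gave 3 lower and 0 higher of 12 tested (median -0.35). H2-Q5 had 29.2 and 18.9 on the Ezh2 KO arrays, the latter under that limit, and 119 and 172 on the wild-type arrays (log2 difference -2.001, limma adjusted p = 0.00602). Without wild-type replicate 2 its adjusted p was 0.0600 (-1.76), and with 64 added in place of 16 its difference was -1.24. Cd1d1, which presents lipids, had 892 and 711 against 1295 and 1433 (-0.76, limma adjusted p = 0.00489). Hfe, a regulator of iron uptake, passed at -0.41 (limma adjusted p = 0.0295). Its call was lost when Ezh2 KO replicate 1 (-0.35), wild-type replicate 1 (-0.37) or wild-type replicate 2 (-0.46) was left out, and without the filter on dim probe sets (limma adjusted p = 0.0550). The list had 1 call without wild-type replicate 2.

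Among factors of class I promoters 2 of 12 tested genes were lower and 0 higher (median -0.03). They were interferon regulatory factors. Irf8 had 1370.2 and 1386 on the Ezh2 KO arrays and 2014 and 2085 on the wild-type arrays (1.48-fold lower, limma adjusted p = 0.00238). Irf1 had 909.7 and 966 against 1318 and 1377 (1.43-fold lower, limma adjusted p = 0.00720). The genes of the RFX and NF-Y subunits on the array did not pass, with log2 differences from -0.09 for Nfyb to 0.41 for Rfxank (limma adjusted p = 0.138), and Rela was at 0.02. Creb1 was at 0.23 (limma adjusted p = 0.0776), and was called higher with 1 probe set per gene and with the replicate block. Ciita, the class II counterpart of Nlrc5, was dim, at 35.8 and 51.9 against 72.9 and 44.9, with overlapping groups.

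In interferon gamma signalling 1 of 9 tested genes was lower, Irf1 again, and 0 were higher (median 0.10). Jak2, a kinase of the receptor, had 1402 and 1363 on the Ezh2 KO arrays and 1142 and 1103 on the wild-type arrays (log2 difference 0.30, limma adjusted p = 0.0628), and was called higher with the filter at the 50th percentile, with 1 probe set per gene and with the replicate block. The receptor chains Ifngr1 and Ifngr2 were at -0.01 and 0.10. Socs1, a feedback inhibitor that interferon gamma induces, had 17.7 and 28.2 on the Ezh2 KO arrays and 80.1 and 68.0 on the wild-type arrays, without overlap, and did not pass (log2 difference -1.22, limma adjusted p = 0.0812). It was picked for mention after its values were seen. In the NLR family Nlrc5 was set beside its relatives: of 10 tested genes 0 were lower and 1 higher (median 0.03). Nlrp12 had 506 and 499 in Ezh2 KO cells against 290.7 and 287 in wild type (1.70-fold higher, limma adjusted p = 0.00538).

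MHC class II genes, which serve presentation to CD4 T cells, gave 3 lower and 0 higher of 8 tested (median -0.30). H2-Ab1, a chain of the class II molecule I-A, had 124 and 83.5 on the Ezh2 KO arrays and 208 and 234 on the wild-type arrays (log2 difference -1.004, limma adjusted p = 0.0269). H2-Oa (-0.88, limma adjusted p = 0.0386) and H2-DMa (-0.38, limma adjusted p = 0.0477) belong to the accessory molecules that govern class II peptide exchange. These 3 calls were not stable. Their number was 0 when wild-type replicate 1 was left out, 1 for wild-type replicate 2, 1 for Ezh2 KO replicate 1 and 2 for Ezh2 KO replicate 2, and it was 0 without the filter. H2-Ab1 lost its call at -1.08 (wild-type replicate 1 left out), -0.93 (wild-type replicate 2) and -0.76 (Ezh2 KO replicate 2). H2-Oa lost its call at -1.02 (wild-type replicate 1 left out), -0.74 (wild-type replicate 2) and -0.68 (Ezh2 KO replicate 1). For H2-DMa the call was lost at -0.27 (wild-type replicate 1 left out) and -0.29 (Ezh2 KO replicate 1), and with hardly any move in the difference under quantile normalization (-0.36, limma adjusted p = 0.0611) and with 1 added in place of 16 (-0.38, limma adjusted p = 0.0539). The list of class I receptors and natural killer ligands held 17 genes, of which 6 had a single-symbol probe set. The 2 tested were Pirb (0.05, limma adjusted p = 0.946) and Ulbp1 (-0.23, limma adjusted p = 0.876), neither past the threshold. Nothing about natural killer recognition can be read from these 2 genes.

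**Figure D5:**
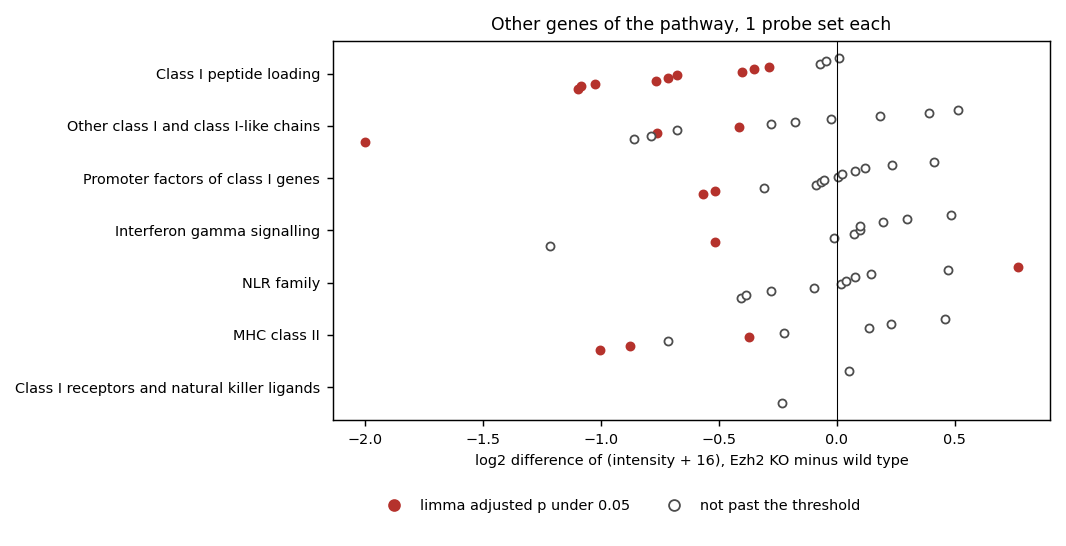
Log2 difference, Ezh2 KO minus wild type (x axis), of every tested gene in 7 lists (rows), 1 probe set a gene; filled points passed a limma adjusted p of 0.05 and open points did not. In the class I peptide loading row 9 of 12 points are filled and lie left of 0, and the single filled point right of 0 is Nlrp12.

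Markers of other cells that a marrow preparation could hold were read the same way. The sums given are over every marker with a probe set, those under the limit included. For T cells 3 of 7 markers exceeded the limit, with summed intensities of 159 to 259 on the Ezh2 KO arrays and 161 to 206 on the wild-type arrays, and Cd3d, Cd3g, Cd4 and Cd8b1 were below it. For natural killer cells 1 of 4 did, with sums of 82.8 to 127 against 57.2 to 91.3, and Ncr1, Klre1 and Gzma were below. The one above, Klrk1, had 32.4 and 29.2 on the Ezh2 KO arrays against 60.6 and 41.5, so it did not share the direction of the sum. For B cells 3 of 4 did (819 to 957 against 806 to 824), for dendritic cells 3 of 5 (286 to 328 against 216 to 268) and for erythroid cells 2 of 3 (154 to 177 against 154 to 186). The sums overlapped between the groups for T, natural killer, B and erythroid cells. They did not for dendritic cells, nor for the megakaryocyte, stromal and endothelial, and myeloid lists given below. Most of the B cell sum was Cd79b, with 761 and 848 on the Ezh2 KO arrays and 763 and 739 on the wild-type arrays, next to dim Ms4a1 and Pax5, while Cd79a was below the limit. Flt3, Zbtb46 and Cd209a of the dendritic cell list exceeded it and Siglech and Xcr1 did not, and of the erythroid list Klf1 and Epor exceeded it and Hba-a1 did not. Megakaryocyte markers summed to 524 to 610.0 in Ezh2 KO against 380.3 to 403 in wild type, with 4 of 5 above the limit. Stromal and endothelial markers summed to 433 to 516 against 549.8 to 566, with 5 of 6 above it. No marker of these 7 cell types was called. All 8 myeloid markers exceeded the limit, with sums of 70492 to 77593 against 69427 to 70024. Of them Itgam (0.74, limma adjusted p = 0.00109) and Csf1r (0.48, limma adjusted p = 0.00720) were higher and Cebpa lower (-0.63, limma adjusted p = 0.0116). The part of these cells in the class I values was not tested.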

How the data were processed

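Probe set intensity values on a linear scale, in 1 table for 4 arrays, were used as the authors deposited them. The submitters' processing notes name Affymetrix Expression Console as the program; no version, summary method or detection call was given in the sources used here. With 2% left out at each end, the mean of every deposited array was 500, as read from the values.

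The table had 45101 probe sets, 64 of them controls that were dropped. Of the rest 34945 had a single gene symbol in the platform annotation, 932 had several and 9160 were not listed there. Every non-control probe set with a mean above the 30th percentile entered one fit of log2(intensity + 16) with lmFit and eBayes in limma 3.58.1 under R 4.3.3. The prior variance followed intensity, and p-values were adjusted by Benjamini-Hochberg over 31526 probe sets, with a threshold of 0.05. A gene of a list was read on its brightest single-symbol probe set. Groups and replicate numbers came from the sample titles. The fit was also run on simulated data drawn from its own prior variance. That run cannot check the prior or the calls that rest on it.

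The members, lists and tests were chosen with earlier results of these data known. Named were all member probe sets, Ezh2 and Cdkn2a, of each list up to 4 called genes of largest change or 2 of highest mean where none was called, and the 5 nearest patterns of Nlrc5, H2-K1, H2-D1 and B2m. Other genes named are given as values. The alternatives tried were quantile scaling, centring on the median, dropping the filter or raising it to the 50th percentile, adding 1 or 64 in place of 16, a single or a robust prior variance, a block for the replicate number, 1 probe set per gene, and leaving out each array. Promoters are RefSeq's for GRCm38.p6. Figures were drawn with matplotlib 3.10.9 in Python 3.11.15.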

Additional observations from a re-analysis of the deposited data

How the results depend on the processing

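The fit called 2303 probe sets, 1234 higher and 1069 lower in Ezh2 KO cells. Centring each array on its median gave 600 higher and 1130 lower, and took the median log2 difference of all tested probe sets to -0.06, against 0.04 as deposited. Without the filter 1392 were called. With a single prior variance limma called 0 (4978 at an unadjusted p under 0.05), so every call rests on a prior that follows intensity. Leaving out 1 array gave 1175 to 2161 probe sets, the lowest without wild-type replicate 1. The replicate number as a block gave 3715; deviations of same-numbered arrays correlated at only 0.036, so the numbers are not taken as pairs.

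The median log2 difference of the 25 member probe sets was -0.85 when 1 was added in place of 16 and -0.73 when 64 was, and ran from -0.81 to -0.75 without 1 array. Of the 25, 6 changed sign under quantile normalization, median centring, either pseudocount or the loss of 1 array, and these were the 6 whose groups overlap. Of the 17 called, 3 lost the call in some alternative besides the single prior: 1450170_x_at without the filter or without wild-type replicate 2 (-0.81), and 1450534_x_at (-1.25) and 1449556_at (-0.42) without wild-type replicate 1. Among list genes that had not passed, Pirb turned to -0.035 under quantile normalization and -0.045 under median centring, and ran from -0.24 to 0.35 with 1 array left out, while Ulbp1 ran from -1.18 to 0.72. The class II calls were all lost without the filter. Values near the limit for testing of 21.9 cannot be told from background here, and 2 arrays a group limit all errors.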

Other observations

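The heavy chain genes and several loading genes lie on chromosome 17, so the other genes between H2-K1 and H2-M3 in the GRCm38.p6 order were read, a step added after the data were seen. Of 84 tested genes there that are neither members nor H2 chains nor on the lists, 9 were lower in Ezh2 KO cells (10.7%) and 5 higher (5.95%) at a limma adjusted p under 0.05, with a median log2 difference of -0.01. Over all genes 4.66% were lower and 4.52% higher; the difference in shares was not tested. Among those called, the largest fall and the largest rise, named after their values were seen, were those of Cfb, complement factor B, with 43.2 and 41.8 on the Ezh2 KO arrays and 195 and 129.8 on the wild-type arrays (log2 difference -1.59, limma adjusted p = 0.00949), and the homeobox gene Pbx2, with 1995 and 2140.3 against 928 and 869 (1.19, limma adjusted p = 5.98e-05).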
